A study of Mus musculus with 16 samples.

Results

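Transcripts of 8 genes were followed through oocyte growth: the H3K9 methyltransferase genes Ehmt1, Ehmt2, Setdb1, Suv39h1 and Suv39h2, and the HP1 genes Cbx1, Cbx3 and Cbx5. They were chosen by name, as 8 of the 25965 rows of the RNA-seq expression table, and all 8 were found there. All libraries came from pools of oocytes of wild-type C57BL/6 mice (named C57BL/6Babr in the methods of the study), with no treatment in any group. Growing oocytes had been measured under the microscope and sorted by diameter. RNA-seq covered 4 diameter classes with 2 libraries each, A and B: the smallest growing oocytes (10–30 μm), then 40–45 μm, then 50–55 μm, and the largest growing oocytes (60–65 μm). It also covered fully grown germinal vesicle (GV) oocytes with 1 library. No diameter is given for the GV oocytes, and the methods of the study give a later age of collection than for any growing class. Reduced representation bisulphite sequencing (RRBS), which reads CpG-dense DNA, covered the classes from 40–45 μm upwards with 2 libraries each, and post-bisulphite adapter tagging (PBAT), which samples the whole genome, covered 60–65 μm oocytes with 1 library. Donors of growing oocytes were older for the larger classes, from the first postnatal week to the third with ages overlapping between classes, so size and age cannot be told apart. Nothing states that A and B came from separate animals, and the p-values below therefore measure the spread between these pools, which may be technical.

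Methylation of lysine 9 on histone H3 marks silent chromatin. EHMT1 (GLP) and EHMT2 (G9a) work as a heterodimer that places mono- and dimethylation, SETDB1 is brought to transposable elements by zinc-finger proteins through KAP1 and places trimethylation, and SUV39H1 and SUV39H2 trimethylate pericentromeric heterochromatin. The HP1 proteins CBX5 (HP1α), CBX1 (HP1β) and CBX3 (HP1γ) read the mark with a chromodomain, and in oocytes both the mark and DNA methylation are laid down as the cell grows.

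Expression was read as RPKM, read counts scaled for exon length and for the size of the library. A fall in RPKM is a fall in the share of the library, and since the RNA content of the oocyte rises with growth, fewer molecules per oocyte and a smaller share of a larger pool cannot be told apart. The RNA libraries held between 99370000 and 198300000 counted reads, as read from the steps of the RPKM values, and the 12 oocyte markers summed to between 2640 and 3890 RPKM in every library. The 10 granulosa cell markers summed to at most 4.20 RPKM, lowest (0.866) at 10–30 μm and highest in GV oocytes, 2.53 of it Cyp19a1. At 60–65 μm they summed to 3.23 and 2.76 RPKM. The granulosa-defining Foxl2 stayed at or under 0.0642 RPKM in each library. Its 60–65 μm mean was 0.954 of that at 10–30 μm. Each of the others was higher, from 1.05 times for Wt1 to 7.18 times for Cyp19a1. Cyp19a1 and Inha (3.18 times), the 2 that entered the test described below, were both called higher over this interval. The 7 theca and stroma markers went from 3.18 and 2.29 at 10–30 μm to 0.855 and 0.823 RPKM at 60–65 μm. The 8 blood and vessel markers in the table went from 0.859 RPKM at 10–30 μm to 6.19 RPKM in GV oocytes, 5.68 of it Pecam1, and the blood-cell marker Ptprc stayed at or under 0.00823 RPKM. The part of these cells in the changes below was not tested.

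The starts of the genes are shown first, because methylation was measured in the same windows. RefSeq promoters of GRCm38.p6, 250 bases before to 50 after a start, were matched for all 8 genes, and 4 genes had 2 annotated starts. Of the 12 promoters 4 are printed, each 5′ to 3′ on its own strand with every CpG in capitals: the rising Setdb1, the CpG-richest window of Ehmt2, the falling Cbx3, and the CpG-rich start of Suv39h1.
Setdb1: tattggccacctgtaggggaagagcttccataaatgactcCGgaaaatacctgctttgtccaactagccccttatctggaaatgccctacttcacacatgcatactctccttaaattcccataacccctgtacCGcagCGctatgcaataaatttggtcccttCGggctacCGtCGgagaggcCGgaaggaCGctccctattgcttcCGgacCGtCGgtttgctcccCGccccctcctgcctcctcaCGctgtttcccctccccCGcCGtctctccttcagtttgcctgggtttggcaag
Ehmt2: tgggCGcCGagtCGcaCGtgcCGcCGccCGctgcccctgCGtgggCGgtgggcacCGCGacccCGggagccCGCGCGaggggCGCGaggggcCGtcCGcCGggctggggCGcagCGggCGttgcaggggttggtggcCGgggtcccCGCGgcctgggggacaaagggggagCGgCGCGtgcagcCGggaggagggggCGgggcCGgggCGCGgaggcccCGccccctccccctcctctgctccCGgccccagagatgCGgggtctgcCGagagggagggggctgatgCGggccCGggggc
Suv39h1: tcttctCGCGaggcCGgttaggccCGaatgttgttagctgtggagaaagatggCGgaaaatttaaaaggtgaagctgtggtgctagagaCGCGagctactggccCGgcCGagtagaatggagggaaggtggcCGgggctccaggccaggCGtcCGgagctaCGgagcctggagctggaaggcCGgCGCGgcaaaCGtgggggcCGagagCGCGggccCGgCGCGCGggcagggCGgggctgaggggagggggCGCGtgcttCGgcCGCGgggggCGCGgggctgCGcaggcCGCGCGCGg
Cbx3: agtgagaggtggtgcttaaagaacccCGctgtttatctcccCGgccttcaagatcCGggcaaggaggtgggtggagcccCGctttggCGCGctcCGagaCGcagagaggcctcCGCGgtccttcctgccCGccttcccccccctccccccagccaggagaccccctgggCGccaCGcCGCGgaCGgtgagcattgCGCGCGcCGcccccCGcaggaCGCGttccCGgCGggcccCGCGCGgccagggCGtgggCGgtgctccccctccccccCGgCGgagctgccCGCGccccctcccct

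The Setdb1 window (chr3:95357153-95357452, minus strand) held 15 CpGs, a number reached by 34.6% of the 32851 promoters in the table. The Ehmt2 window (chr17:34898720-34899019, plus strand) held 40, reached by only 3.91% of promoters. The Suv39h1 window (chrX:8074312-8074611, minus strand) held 37, reached by 5.58%, and the Cbx3 window (chr6:51470366-51470665, plus strand) held 34, reached by 7.73%. Apart from an internal second start of Cbx5 with 8 CpGs, every promoter of the 8 genes held at least 15 CpGs, against a median of 7 over all promoters. The GC box GGGCGG, searched on both strands, occurred in 11 of the 12 windows and in 35.7% of all promoters. The ETS-type motif CCGGAAG, also searched on both strands, occurred only in the Setdb1 window among the 12, and in 8.86% of all promoters. The cyclic-AMP response element TGACGTCA, which reads the same on both strands, occurred only in the Suv39h2 window among the 12, and in 1.79% of all promoters.

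Transcript levels spanned more than 2 orders of magnitude among the 8 genes. In 60–65 μm oocytes the order by mean RPKM was Setdb1 (19.5 ± 0.964 SD, n = 2), Suv39h2 (8.70 ± 0.182), Cbx1 (6.07 ± 0.0614), Ehmt1 (3.74 ± 0.401), Cbx5 (2.36 ± 0.0370), Ehmt2 (2.03 ± 0.163), Cbx3 (0.536 ± 0.0827) and Suv39h1 (0.0554 ± 0.0299), and the libraries of neighbours in that order did not overlap. In 10–30 μm oocytes Cbx5 (3.02 ± 0.0234), Ehmt2 (3.02 ± 0.273) and Ehmt1 (2.83 ± 0.337) lay within each other's range and could not be ordered. Changes were tested for 10518 genes with at least 0.5 RPKM in 2 of the 8 growing-oocyte libraries, by limma on log2(RPKM + 0.1) after scaling, and a gene was called at a Benjamini-Hochberg adjusted p under 0.05 over all of them. Of the 8 genes 7 entered the test, and Suv39h1 did not pass the filter. Because of the 0.1 added, log2 fold changes understate the change of genes as low as Cbx3.

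Between 10–30 and 60–65 μm, 5 of the 7 were called, 2 higher and 3 lower, while 63.3% of all genes tested were called in this comparison, 31.7% higher and 31.6% lower. Setdb1 and Ehmt1 rose, and Ehmt2, Cbx3 and Cbx5 fell. Without regard to the fit, both 60–65 μm libraries lay above both 10–30 μm libraries for Ehmt1 and Setdb1 (40.2% of all genes tested) and below them for Ehmt2, Cbx1, Cbx3 and Cbx5 (41.9%). Overlap of RNA-seq libraries was judged throughout in RPKM before scaling. The median log2 fold change of the 7 was −0.24, against 0.0023 over all genes tested. Between 40–45 and 60–65 μm, the interval in which DNA methylation was profiled, 3 of 7 were called, Setdb1 higher (18.9% of all genes) and Ehmt2 and Cbx3 lower (18.4%), against 37.3% of all genes in either direction. Over the single steps, 2 of 7 were called from 10–30 to 40–45 μm (23.1% of all genes), Setdb1 higher (13.0%) and Cbx3 lower (10.1%). From 40–45 to 50–55 μm 1 of 7 was called (8.93% of all genes), Cbx3, which was lower (3.25% lower and 5.68% higher). The number of all genes called in this step, 939, went to 0 without library B of 40–45 μm or A of 50–55 μm and to 1619 without library B of 10–30 μm, so that this share is itself unstable. The count was 0 of 7 from 50–55 to 60–65 μm, where limma called 0% of all genes and 1 of the 7, Cbx3, had an unadjusted p under 0.05 (0.0236). Any difference among the 4 classes was called for 4 of 7 by the moderated F test of the same fit (54.2% of all genes): Cbx3, Setdb1, Ehmt2 and Ehmt1.

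**Figure D1:**
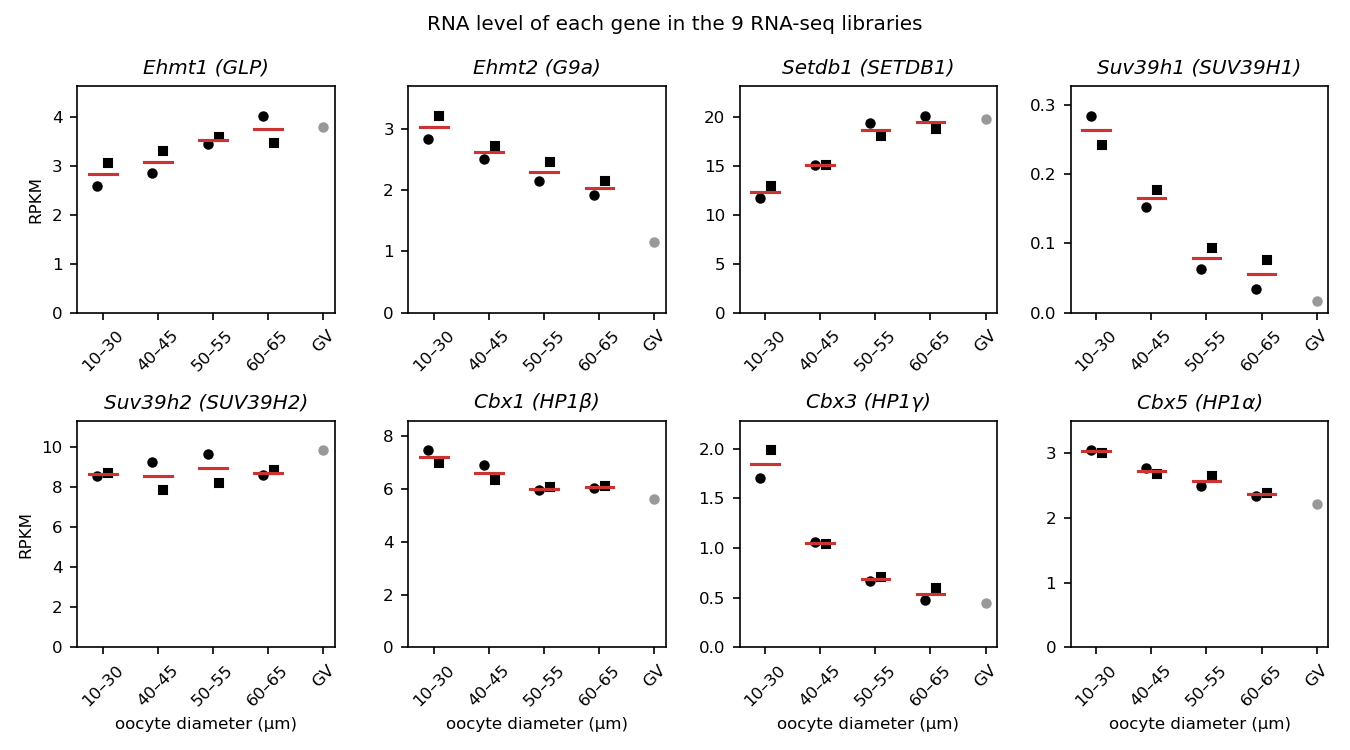
RPKM of each gene (y axis, linear from 0, a separate scale per gene) by oocyte diameter in μm (x axis). Circles are A libraries, squares B libraries, red bars the mean of 2 libraries, and the grey circle the single GV library. Setdb1 and Ehmt1 climb, Cbx3 and Suv39h1 drop steeply, Ehmt2 and Cbx5 drop by less, and Suv39h2 stays between 7.87 and 9.81 RPKM.

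The genes of the GLP–G9a heterodimer moved in opposite directions. Ehmt1 (chr2:24790769-24919609, minus strand) measured 2.59 and 3.07 RPKM in the A and B libraries of the smallest oocytes, 2.85 and 3.30 in the 40–45 μm class, 3.45 and 3.59 in the 50–55 μm class, and 4.03 and 3.46 in the largest. Both 60–65 μm libraries lay above both 10–30 μm libraries, whereas neighbouring classes overlapped except from 40–45 to 50–55 μm. The rise was 0.40 on the log2 scale (SE 0.11, adjusted p = 0.0137 by limma). It was no longer called without library A at 10–30 μm (log2 fold change 0.31, adjusted p = 0.0736 by limma) or without library A at 60–65 μm (0.31, adjusted p = 0.104 by limma), and its F test was close to the threshold (adjusted p = 0.0494 by limma).

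Ehmt2 (chr17:34898469-34914052, plus strand), which encodes G9a, measured 2.83 and 3.21 RPKM in the smallest oocytes, 2.50 and 2.72 in the 40–45 μm class, 2.14 and 2.45 in the 50–55 μm class, and 1.92 and 2.15 in the largest. The A library was the lower in each class, and the 60–65 μm libraries lay below both of those at 10–30 and at 40–45 μm. Ehmt2 fell by 0.54 on the log2 scale from 10–30 to 60–65 μm (SE 0.11, adjusted p = 0.00267 by limma) and remained called without any single library. From 40–45 to 60–65 μm it fell by 0.40 (SE 0.11, adjusted p = 0.0215 by limma), a call lost without either 40–45 μm library (adjusted p = 0.0587 and 0.0927 by limma for A and B), without library A at 60–65 μm (0.168), and with unscaled libraries (0.0515). The log2 fold change stayed between −0.48 and −0.31 over all omissions of 1 library and was −0.35 unscaled. The single steps were each between −0.21 and −0.14 and were not called.

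Within each library, the ratio of Ehmt1 to Ehmt2 does not depend on how libraries are scaled. It was 0.916 and 0.954 in the smallest oocytes, 1.14 and 1.21 in the 40–45 μm class, 1.61 and 1.46 in the 50–55 μm class, and 2.099 and 1.61 in the largest. The ratio thus passed from below 1 to 1.86 ± 0.346 (SD, n = 2), 1.98 times its 10–30 μm mean, and neighbouring classes overlapped only at 50–55 and 60–65 μm. An exact permutation test of the F statistic over all 105 ways to pair the 8 libraries gave p = 0.0190 (0.0317 after Benjamini-Hochberg adjustment over the 5 ratios tested, against a smallest possible p of 0.00952). In the GV library the ratio was 3.29.

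Setdb1 (chr3:95323525-95357202, minus strand) was the most abundant of the 8 in every library and had the larger rise of the 2 genes called higher. It measured 11.7 and 12.97 RPKM in the smallest oocytes, 15.09 and 15.05 in the 40–45 μm class, 19.3 and 18.0 in the 50–55 μm class, and 20.1 and 18.8 in the largest. The first 3 classes did not overlap, and the 50–55 and 60–65 μm libraries did. Over the whole interval the rise was 0.66 on the log2 scale (SE 0.09, adjusted p = 3.91e-04 by limma), or 57.5% of the 10–30 μm mean, and leaving out any one library kept the log2 fold change between 0.62 and 0.71 and the call.

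Over parts of the interval the Setdb1 fold changes kept their size, but their calls lay close to the threshold. From 10–30 to 40–45 μm the log2 fold change was 0.35 (SE 0.09, adjusted p = 0.0292 by limma), a call lost without scaling (0.0563) and when any single library other than B of 10–30 μm was left out (0.0560 to 0.133), although the log2 fold change stayed between 0.32 and 0.38 over all such omissions. From 40–45 to 60–65 μm it was 0.31 (SE 0.09, adjusted p = 0.0319 by limma), a call lost without any single library of 40–45, 50–55 or 60–65 μm (0.0573 to 0.195), with log2 fold changes of 0.27 to 0.36. The last 64 bases of Setdb1 overlap the end of Lass2 on the opposite strand, which held between 3.66 and 4.64 RPKM and was not called (log2 fold change 0.08, adjusted p = 0.545 by limma).

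**Figure D2:**
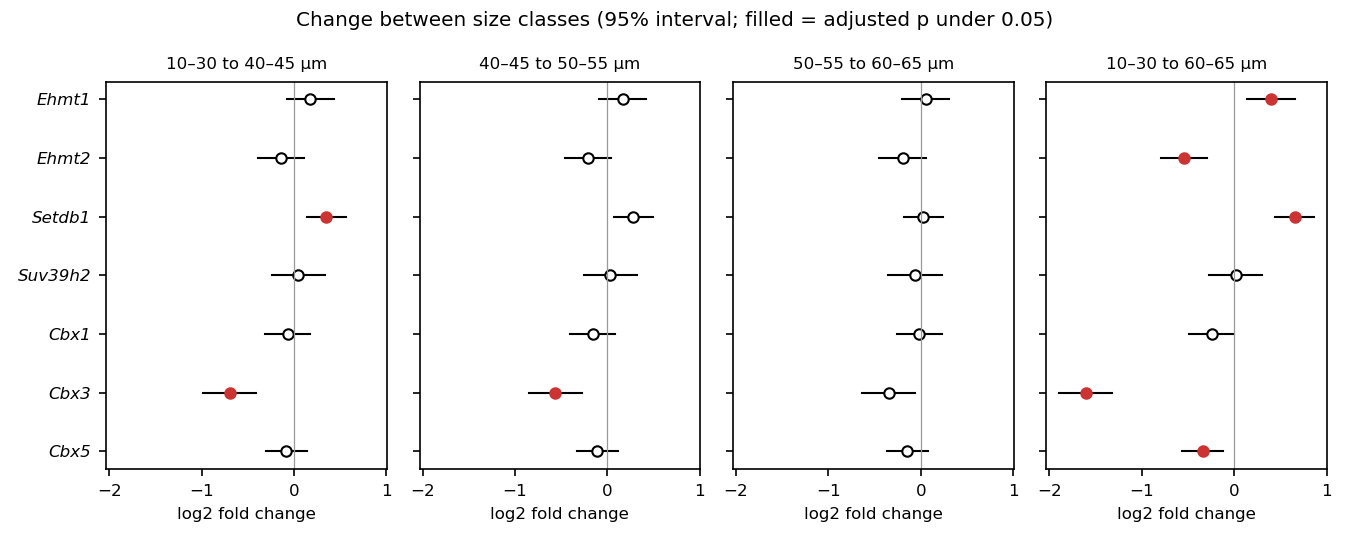
Log2 fold change of log2(RPKM + 0.1) with its 95% interval (x axis) for the 7 genes tested (y axis) over the 3 single steps and over the whole interval. Filled red points were called at an adjusted p under 0.05: Setdb1 and Cbx3 in the first step, Cbx3 in the second, none in the third, and 5 genes over the whole interval, with Cbx3 the farthest from 0 at −1.61.

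The SUV39H paralogues differed in level by more than the other pairs, and Suv39h2 was the more abundant in every library. Suv39h2 (chr2:3455815-3475031, minus strand), known for its expression in the germ line, measured 8.55 and 8.70 RPKM in the smallest oocytes, 9.26 and 7.87 in the 40–45 μm class, 9.62 and 8.21 in the 50–55 μm class, and 8.57 and 8.83 in the largest. All classes overlapped, and the difference from 10–30 to 60–65 μm was 0.02 on the log2 scale, with a 95% interval of −0.27 to 0.30 (adjusted p = 0.918 by limma). Suv39h2 had the highest F-test adjusted p of the 7 genes (0.943 by limma).

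Suv39h1 (chrX:8061171-8074760, minus strand) was the least abundant of the 8 in every library and lower in larger oocytes. It measured 0.285 and 0.242 RPKM in the smallest oocytes, 0.153 and 0.177 in the 40–45 μm class, 0.0629 and 0.0933 in the 50–55 μm class, 0.0343 and 0.0766 in the largest, and 0.0163 in GV oocytes. RPKM values stepped in whole reads, and over its 5270 exon bases they equalled 149 and 203 reads in the smallest oocytes, 121 and 178 in the 40–45 μm class, 39 and 76 in the 50–55 μm class, 19 and 73 in the largest, and 17 in the GV library. The first 3 classes did not overlap, each lower than the one before, while the 50–55 and 60–65 μm libraries did. The 60–65 μm mean was 0.210 of that at 10–30 μm, and 0.130 without library B and 0.291 without library A of 60–65 μm. With no filter on low values, limma on 20052 genes gave a log2 fold change of −1.21 (SE 0.16, adjusted p = 0.00126) from 10–30 to 60–65 μm, where 46.4% of those genes were called.

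The ratio of Suv39h1 to Suv39h2 was 0.0333 and 0.0278 in the smallest oocytes, 0.0165 and 0.0225 in the 40–45 μm class, 0.00654 and 0.0114 in the 50–55 μm class, and 0.00400 and 0.00867 in the largest. Both values of each of the later 2 classes lay below all values of the earlier 2, and the ratio reached 0.00166 in GV oocytes. The exact permutation test of its F statistic gave p = 0.0381 (0.0476 adjusted over the 5 ratios).

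Suv39h1 lies almost wholly inside a longer transcript on the opposite strand. The long non-coding RNA Gm14820 (chrX:8049172-8074619, plus strand) overlaps 13449 bases of Suv39h1 and measured 22.3 and 18.4 RPKM in the smallest oocytes, 24.2 and 23.3 in the 40–45 μm class, 31.3 and 27.4 in the 50–55 μm class, 34.8 and 33.5 in the largest, and 37.2 in GV oocytes. Gm14820 rose by 0.75 on the log2 scale (SE 0.14, adjusted p = 0.00152 by limma) over the interval in which Suv39h1 was lower. The exons of the 2 genes share 767 bases in GENCODE M21. Gm14820 held 4077 reads in the 10–30 μm A library and 13581 in the GV library, over 1842 exon bases as inferred from its RPKM values. GENCODE M21 gives it 2096 exon bases, so the 2 gene models differ. If all 767 shared bases lay in the 1842, an even spread would put 1698 and 5655 reads on them. The reads counted for Suv39h1 were 149 and 17. How the reads of Gm14820 spread over its exons was not measured, and the part of antisense reads in the Suv39h1 counts was not tested.

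**Figure D3:**
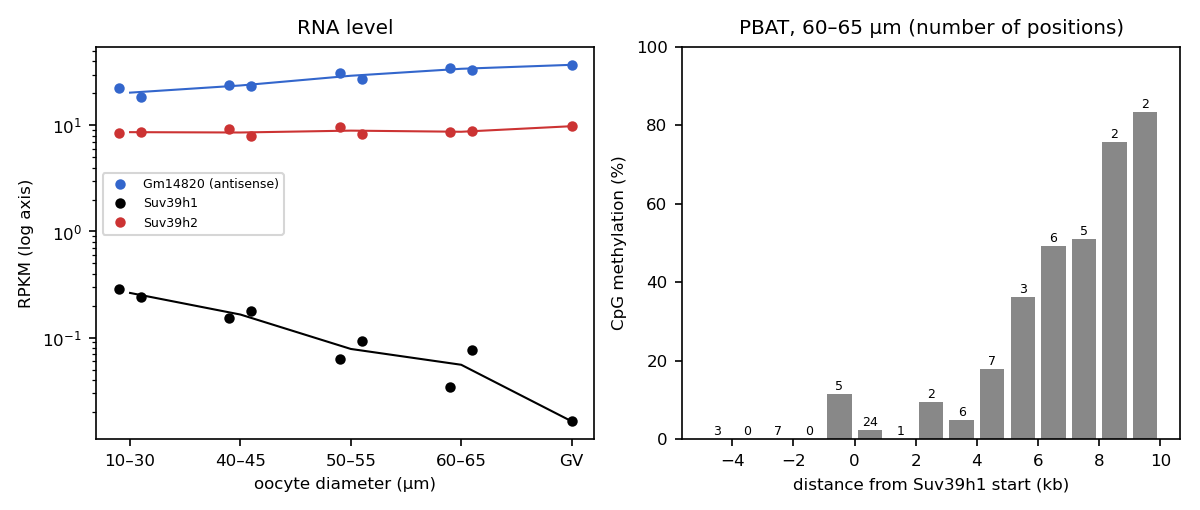
Left, RPKM on a log axis by oocyte diameter in μm for Suv39h1, its paralogue Suv39h2 and the antisense Gm14820, with points for libraries and lines through class means. Right, mean CpG methylation in percent in the 60–65 μm PBAT library in 1 kb bins by distance from the Suv39h1 start, with the number of CpG cytosines above each bar; methylation stays at or under 18.0% in the first 5 kb and reaches 83.3% between 9 and 10 kb.

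Among the HP1 genes, Cbx3 showed the largest log2 fold change of the 7 genes tested. Cbx3 (chr6:51470360-51483704, plus strand), which encodes HP1γ, measured 1.70 and 1.98 RPKM in the smallest oocytes, 1.06 and 1.04 in the 40–45 μm class, 0.669 and 0.713 in the 50–55 μm class, 0.477 and 0.594 in the largest, and 0.442 in GV oocytes. Both libraries of each class lay below both of the class before, at all 3 steps, a pattern shared by 11.6% of all genes tested (12.7% lay higher at each of the 3 steps, none of the 8 genes among them). Cbx3 fell by 1.61 on the log2 scale over the whole interval (SE 0.13, adjusted p = 2.02e-05 by limma), to 0.291 of its 10–30 μm mean, and leaving out any one library kept the log2 fold change between −1.74 and −1.46 with the call in place. The size depends on the constant added: it was −0.88 with 1 RPKM in place of 0.1.

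By step, Cbx3 fell by 0.70 from 10–30 to 40–45 μm (SE 0.13, adjusted p = 0.00709 by limma) and by 0.56 from 40–45 to 50–55 μm (SE 0.13, adjusted p = 0.0324 by limma). The call of the second step was lost without any single library of the 2 classes (0.109 to 0.224, with log2 fold changes of −0.60 to −0.52) and without a filter on low values (0.0731). From 50–55 to 60–65 μm the log2 fold change was −0.35 (SE 0.13, adjusted p = 0.288 by limma). Cbx3 held 162 to 1018 reads in the growing-oocyte libraries. GENCODE M21 lists 8 genes named as pseudogenes of Cbx3 and none so named for the other genes followed here. Copies under other names were not searched for. Since the authors kept 1 alignment per read, reads shared with such copies may have been placed elsewhere. This leaves the absolute level of Cbx3 uncertain. None of the 8 has a row in the table.

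Cbx5 (chr15:103191544-103239816, minus strand), which encodes HP1α, measured 3.04 and 3.01 RPKM in the smallest oocytes, 2.77 and 2.68 in the 40–45 μm class, 2.49 and 2.65 in the 50–55 μm class, and 2.34 and 2.39 in the largest. Like Cbx3 it lay lower at each of the 3 steps without overlap in RPKM before scaling, though the drop was small. In the first step the scale factors, 1.052 for library B of 10–30 μm and 0.955 for library A of 40–45 μm, bring the classes to overlap. It fell by 0.34 on the log2 scale over the whole interval (SE 0.10, adjusted p = 0.0148 by limma), or by 21.8% of its mean. The call was lost without library A of 10–30 μm (0.0526) or without A or B of 60–65 μm (0.0896 and 0.0554), and the F test missed the threshold (adjusted p = 0.0637 by limma).

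Cbx1 (chr11:96789127-96808640, plus strand), which encodes HP1β and was the most abundant HP1 transcript in each library, measured 7.46 and 6.99 RPKM in the smallest oocytes, 6.89 and 6.32 in the 40–45 μm class, 5.95 and 6.09 in the 50–55 μm class, and 6.03 and 6.12 in the largest. The 60–65 μm libraries lay below both 10–30 μm libraries, but the difference was not called, with a log2 fold change of −0.24 (95% interval −0.48 to 0.0002, adjusted p = 0.0744 by limma). It passed the threshold with a stricter filter of 2 RPKM (0.0470), without scaling (0.0415) and without library B of 10–30 μm (0.0249).

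Relative to the other HP1 transcripts Cbx3 declined. The ratio of Cbx1 to Cbx3 was 4.39 and 3.53 in the smallest oocytes, 6.52 and 6.10 in the 40–45 μm class, 8.89 and 8.53 in the 50–55 μm class, and 12.6 and 10.3 in the largest, without overlap between classes (exact permutation p = 0.00952, the smallest the test can give, 0.0238 adjusted). The ratio of Cbx3 to Cbx5 moved from 0.560 and 0.660 at 10–30 μm through 0.382 and 0.387, and 0.268 and 0.269, to 0.204 and 0.249 at 60–65 μm, again without overlap (exact permutation p = 0.00952, 0.0238 adjusted). These 2 ratios share Cbx3 and are not independent. The ratio of Cbx1 to Cbx5 ranged from 2.297 to 2.581 over the 8 libraries, and its difference among classes did not pass the exact permutation test (p = 0.143, 0.143 adjusted).

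**Figure D4:**
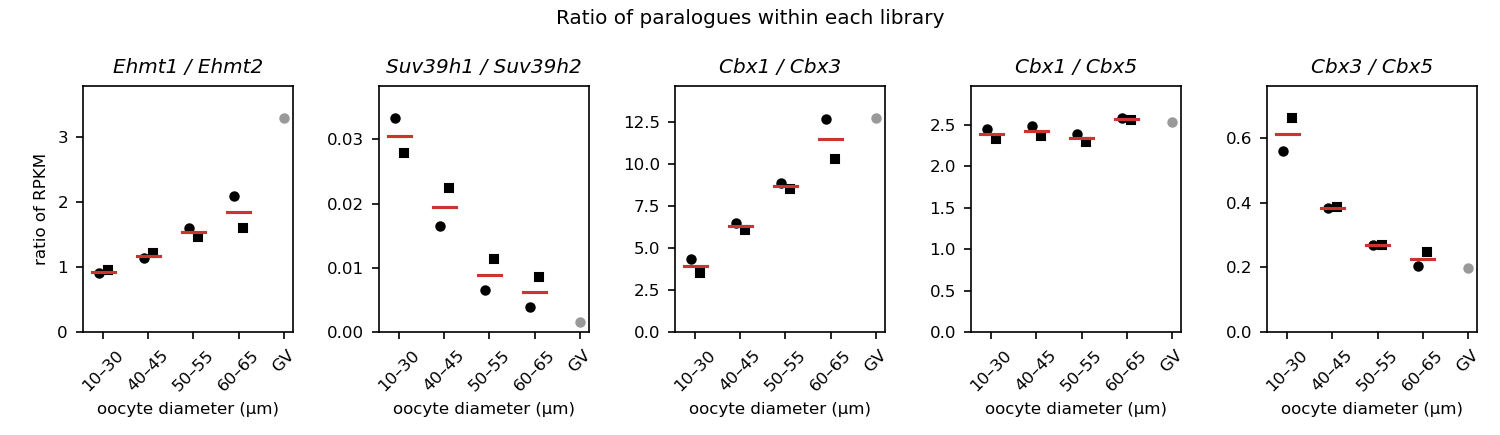
Ratio of RPKM between paralogues within each library (y axis, linear from 0) by oocyte diameter in μm; circles are A, squares B, red bars the mean of 2 libraries and grey circles the GV library. Ehmt1 over Ehmt2 and Cbx1 over Cbx3 climb, Suv39h1 over Suv39h2 and Cbx3 over Cbx5 drop, and Cbx1 over Cbx5 stays between 2.297 and 2.581.

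The GV library, which has no replicate and therefore no test, continued these courses for some of the genes. Ehmt2 stood at 1.148 RPKM in GV oocytes, 0.565 of the 60–65 μm mean, and only 1.25% of 9948 genes had a lower ratio of GV to 60–65 μm. Cbx3 stood at 0.825 of the 60–65 μm mean. Suv39h1 stood at 0.294 of that mean, but at 0.474 of library A and 0.212 of library B alone. Setdb1 (19.8 RPKM), Ehmt1 (3.78) and Suv39h2 (9.81) were at 1.02, 1.01 and 1.13 times that mean, and Cbx1 (5.62) and Cbx5 (2.22) at 0.926 and 0.938.

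Partners of these proteins were read from lists grouped by role, together with other H3K9 methyltransferases, H3K9 demethylases and Polycomb chromodomain proteins. These 47 genes are called partner genes for short, although not all are partners. Of them 46 were in the table and 41 were tested. From 10–30 to 60–65 μm, 18 rose and 9 fell, 27 of 41 in all, where 63.3% of all genes tested were called. The median log2 fold change of the 41 was 0.25. All 3 of the other H3K9 methyltransferases that could be tested rose, led by Prdm2 (0.69, SE 0.18, adjusted p = 0.0103 by limma). Of the 9 tested partners of SETDB1 in the KAP1 and HUSH pathways, 4 rose and 2 fell. The largest change among them was in Zfp809, a zinc-finger protein that brings KAP1 to retroviral DNA, which fell from 2.35 and 2.18 RPKM to 0.531 and 0.672 (log2 fold change −1.75, SE 0.14, adjusted p = 2.17e-05 by limma).

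Of the 5 genes listed as EHMT partners or, for Dppa3, as an H3K9me2 reader, 1 rose and 2 fell, and in this and each of the other lists the counts stand against 31.7% of all genes tested that rose and 31.6% that fell. Zfp644, a zinc-finger partner of the GLP–G9a complex, fell from 12.9 and 12.5 to 3.855 and 5.103 RPKM (log2 fold change −1.49, SE 0.14, adjusted p = 4.33e-05 by limma). Dppa3, which protects H3K9me2-marked maternal chromatin in the zygote, fell from 590.4 and 475.4 to 213.4 and 248.2 RPKM (log2 fold change −1.20, SE 0.16, adjusted p = 3.11e-04 by limma). Among the 9 tested HP1 partners 4 rose and 3 fell, the largest change being in Adnp, which binds HP1 in the ChAHP complex and fell by 1.20 (SE 0.13, adjusted p = 9.62e-05 by limma). Of the pair of H4K20 methyltransferases that HP1 recruits, Suv420h1 fell by 1.25 (SE 0.11, adjusted p = 3.39e-05 by limma) and Suv420h2 was not called.

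Of the 10 tested H3K9 demethylases 5 rose and 1 fell, against 31.7% and 31.6% of all genes tested. The one that fell was Kdm4c, which removes trimethylation, from 0.788 and 0.719 to 0.260 and 0.283 RPKM (log2 fold change −1.19, SE 0.13, adjusted p = 1.00e-04 by limma). Among the Polycomb chromodomain proteins, relatives of HP1 that read H3K27 methylation, 1 of 3 tested was called: Cbx2 rose from 8.71 and 11.6 to 24.7 and 22.4 RPKM (log2 fold change 1.22, SE 0.12, adjusted p = 5.37e-05 by limma).

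The genes whose course over the 8 libraries was most like that of each gene called by the F test were found among 8509 genes with a mean of at least 1 RPKM. For Cbx3 they were Th, Ppp3cb and Ap3s1 (Pearson r between 0.994 and 0.996), for Setdb1 Il10rb, 1700021K19Rik and RP23-190G10.4 (0.996 to 0.997), for Ehmt2 Ltn1, Zdhhc4 and Gipc1 (0.991 to 0.996), and for Ehmt1 Tmem39b, Bcl2l13 and Dock5 (0.985 to 0.988). All genes share these 8 libraries and their 4 size classes, and the r values are a description only.

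DNA methylation around the starts of the 8 genes was low at the positions covered in each size class. It was taken as the mean percentage over CpG cytosines with at least 5 reads within 1 kb of the start, where at least 5 such positions were covered. In the 6 RRBS libraries the values of the 8 genes lay between 0 and 9.55%, the highest in the 40–45 μm B library at Cbx1, where 9 of 565 calls were methylated. The median over the 8 genes differed between the A and B libraries of a class: 0.6003 and 0.190% for 40–45 μm oocytes, 0.635 and 1.26% for the next class, and 0.247 and 1.04% for the largest. The median over all genes covered in the same libraries was 0.612 and 0.391%, 0.632 and 0.383%, and 0.608 and 0.546%, so that the 8 genes lay below it in 3 libraries and above it in 3. Only library A covered the Cbx5 start, with 8, 8 and 5 positions in the 3 classes. The promoter window of the outer Suv39h1 start, which is not printed, had no position with at least 5 reads in any RRBS or PBAT library. That of Cbx1 had none in the RRBS libraries, so these values come from flanking positions.

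In the PBAT library of 60–65 μm oocytes the starts of the 8 genes lay between 1.73% at Cbx3 (95% Wilson interval of the calls 0.997 to 2.31%, 1381 calls) and 4.54% at Setdb1 (2.15 to 11.2%, 100 calls). The median over all 19669 genes covered was 3.87%. Counting positions with as little as 1 read, the Suv39h1 start came to 17.8% in place of 3.99%, and the Setdb1 start to 6.90%, while the other 6 stayed between 2.09 and 5.66%. With at least 10 reads 5 of the 8 starts kept a value, from 0% at Suv39h2 to 6.82% at Cbx5. In the printed windows, 2 of 24 calls were methylated at Setdb1, 2 of 161 at Ehmt2, 2 of 81 at Suv39h1 and 1 of 297 at Cbx3. Cbx5 also has an annotated start 24464 bases inside the gene, in a window with 8 CpGs, and there 5 of 10 calls were methylated (23.7 to 76.3%). Intervals on methylation cover counting error only.

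The bodies of the same genes were methylated in 60–65 μm oocytes. From 1 kb past the start to the end, the mean over covered CpG cytosines in the PBAT library was 64.8% for Suv39h2, 64.7% for Cbx5, 63.0% for Cbx3, 59.6% for Ehmt1, 57.7% for Ehmt2, 52.7% for Setdb1, 46.0% for Suv39h1 and 39.9% for Cbx1. The coverage ranged from 16 positions and 110 calls at Cbx3 to 274 positions and 2034 calls at Ehmt1. The median over 17457 genes of at least 4 kb was 27.6% (quartiles 8.72 and 51.4%), and over the 5668 of them with at least 2 RPKM it was 49.6% (36.3 and 59.3%). All 8 genes lay above the median of all genes, with 61.2% of genes lower than Cbx1 and 92.2% lower than Suv39h2. Suv39h1 and Cbx1 lay below the median of the expressed genes, and the other 6 above it. The order of the genes depends on the read minimum: with 1 read per position Suv39h2 held 44.9%, the second lowest of the 8, and with 10 reads, where 4 of the 8 genes kept enough positions, Suv39h1 held 65.7%.

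**Figure D5:**
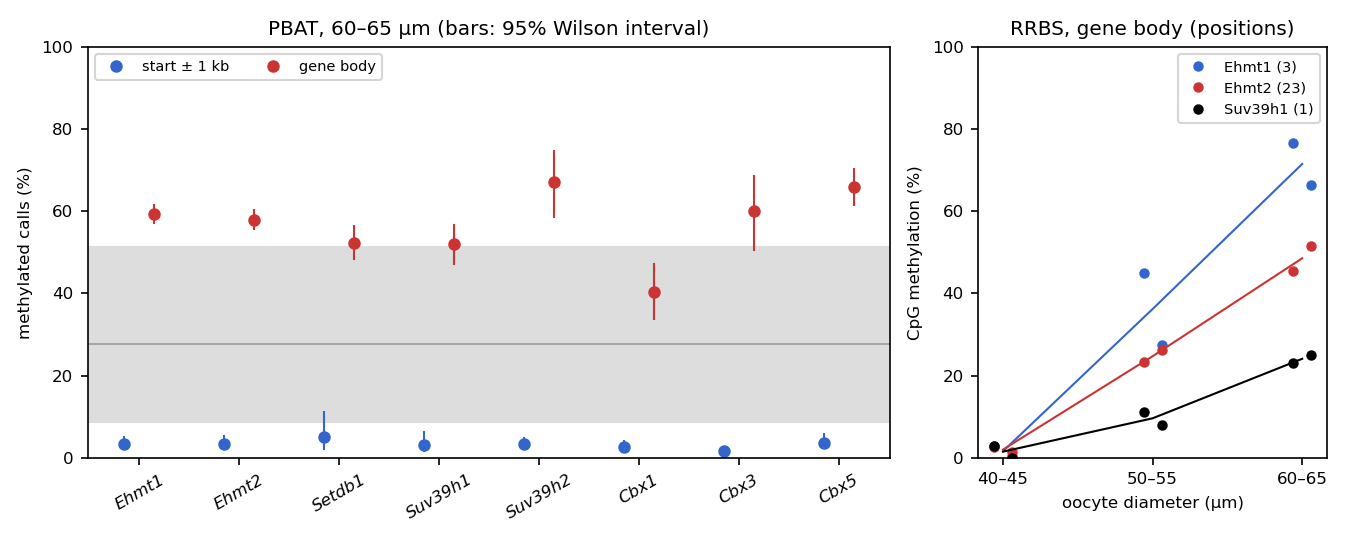
Left, methylated share of CpG calls in percent (y axis) in the 60–65 μm PBAT library within 1 kb of the start (blue) and in the gene body (red), with 95% Wilson intervals; the grey band and line are the quartiles and median of mean body methylation over genes of at least 4 kb. All 8 starts lie under 6%, and all 8 bodies above the median. Right, RRBS methylation in percent over body positions covered in all 6 libraries by diameter in μm, with points for libraries and lines through class means; numbers in the legend count positions.

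Within the bodies, methylation was not even. At Cbx1 the 7 of the first 10 kilobases with covered positions held 0 to 18.2%, most of them on 1 to 8 positions, while the whole body averaged 39.9%. At Suv39h1 the first 5 kb held at most 18.0%, and the kilobases from the sixth to the tenth rose from 36.2 to 83.3%, on 2 to 6 positions each. At Ehmt2 the 63 positions of the first kilobase held 3.30%, and each kilobase between 6 and 10 kb held 62.8 to 74.5%.

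The timing could be followed where RRBS covered the same positions in all 6 libraries. In the Ehmt2 body 23 positions were shared, and their mean was 2.56 and 1.40% in the A and B libraries of the 40–45 μm class, 23.3 and 26.1% in the 50–55 μm class, and 45.6 and 51.5% in the largest oocytes. The classes did not overlap. Between any 2 classes, 2 libraries against 2 cannot reach a p under 0.05 by permutation, and no test across the 3 classes was run. The class means of 1.98, 24.7 and 48.5% were higher than in 65.1, 90.9 and 90.2% of 4545 genes with at least 10 shared body positions, whose medians were 1.49, 4.44 and 5.22%. Against the 1401 of these genes with at least 2 RPKM, whose median reached 23.6% at 60–65 μm, Ehmt2 was higher than 82.4%. In the Ehmt1 body only 3 positions were shared, at 2.75 and 0.412%, then 44.9 and 27.5%, then 76.6 and 66.5%. The single shared position of Suv39h1 went from 2.94 and 0% to 23.2 and 25%.

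The body of Suv39h1 was set beside those of other genes with little RNA. The 6986 genes of at least 4 kb under 0.1 RPKM at 60–65 μm had a median body methylation of 8.18%, and 94.7% of them lay below the 46.0% of Suv39h1. In 166 of these genes at least 90% of the body lay inside another row of at least 2 RPKM, as that of Suv39h1 lies inside Gm14820, and their median was 47.1% (quartiles 16.5 and 62.7%), against 8.08% in the other 6820. Suv39h1 stood near the middle of the 166, with 48.2% of them lower. The part of transcription of Gm14820 in the methylation of Suv39h1 was not tested.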

How the data were processed

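RNA-seq, RRBS and PBAT libraries of size-sorted growing oocytes and an RNA-seq library of GV oocytes were used. The authors trimmed reads with Trim Galore (0.3.5, and 0.2.8 for RNA-seq) and mapped them to GRCm38, with TopHat2 2.0.9 keeping 1 alignment per read (RNA-seq) and Bismark 0.14.0 (RRBS) or 0.10.0 (PBAT, deduplicated). RRBS reads were not stated to be deduplicated. The deposited expression table held RPKM values per gene; the RNA-seq libraries were strand-specific, and the authors used SeqMonk for analysis and Cufflinks for FPKM values of transcripts, but which program made the RPKM table, and with which strand setting, is not given in the sources used here. The deposited methylation files held, per CpG cytosine, the percent methylated and the counts of methylated and unmethylated reads, with 30000113 to 57319823 calls per RRBS library and 99039028 in PBAT.

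Libraries were scaled by a trimmed mean of ratios (factors 0.955 to 1.05), and log2(RPKM + 0.1) of genes with at least 0.5 RPKM in 2 of 8 libraries was fitted with limma 3.58.1 (R 4.3.3), with a variance trend and 1 mean per size class. On simulated data for the 10–30 to 60–65 μm comparison over 10518 genes, 83.5% of 200 genes with a log2 change of 1 were recovered. Where 200 genes changed by 0.5, 0% were recovered, and where 5000 did, 74.5% were. Reads were recovered from RPKM steps of single-exon genes (202 to 223 per library, at most 1 of them not within 0.02 of a whole number). Intervals are 95% Wilson intervals (statsmodels 0.14.6). Ratios were tested by exact permutation.

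The members and lists were chosen with earlier results of these data known. The partners named were those called genes of each list with an absolute log2 fold change of at least 1, or the largest call of a list without one. Libraries of the same letter did not deviate together in all classes, so no block was used. Alternatives changed the pseudocount, filter, scaling, variance trend, read minimum and window, added the letter as a block, or left out each library.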

Additional observations from a re-analysis of the deposited data

How the results depend on the processing

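Of 193 alternatives to the counts, ratios and methylation medians, 156 stayed within the limits set and 37 moved. Some of the 156 could not have moved, as given below. Of 555 alternatives for single genes, 522 kept their side of the threshold, 28 lost a call and 5 gained one. No called value changed direction. With at least 2 RPKM in 2 libraries, which removed Cbx3 and left 6 genes, 1 was called from 10–30 to 40–45 μm (21.3% of all 7235 genes tested), 0 from 40–45 to 50–55 μm (7.23%) and 2 by the F test (53.2%), and 17 of 24 partner genes were called from 10–30 to 60–65 μm (63.3%). Without scaling 1 of 7 was called from 10–30 to 40–45 μm (24.8% of all genes) and 6 from 10–30 to 60–65 μm (62.7%). Without a filter, which let Suv39h1 in, 0 of 8 were called from 40–45 to 50–55 μm (2.57% of 20052 genes), 6 from 10–30 to 60–65 μm (46.4%) and 4 from 40–45 to 60–65 μm (23.9%). Leaving out 1 library at a time gave, of 7 genes, 1 to 2 calls from 10–30 to 40–45 μm (8.03 to 28.3% of all genes), 0 to 1 from 40–45 to 50–55 μm (0 to 15.7%), 3 to 6 from 10–30 to 60–65 μm (46.4 to 63.3%), 1 to 4 from 40–45 to 60–65 μm (12.7 to 43.2%), 2 to 4 by the F test (38.5 to 55.0%), and 19 to 29 of 41 partner genes. Fewer samples were fitted in these, and the share of all genes called moved too.

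Deviations of same-lettered libraries correlated at 0.588 to 0.670 over the pairs among the 10–30, 40–45 and 50–55 μm classes. With the 60–65 μm class they correlated at −0.227, −0.0256 and 0.113. The letters thus deviated together in all classes but the largest, and the main fit did not treat them as pairs. With the letter as a replicate block, limma called 5 of the 7 genes tested from 10–30 to 60–65 μm (69.3% of all genes, 63.3% without the block). It called 4 of 7 by the F test (63.1% of all genes, 54.2% without the block). From 10–30 to 60–65 μm it called 29 of 41 partner genes and 7286 genes in all, against 6663 without the block. It called 1876 against 939 from 40–45 to 50–55 μm, and 245 against 0 from 50–55 to 60–65 μm.

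The log2 change of the ratios from 10–30 to 60–65 μm, leaving out 1 library, ranged from 0.78 to 1.17 for Ehmt1 to Ehmt2, from −2.93 to −1.81 for Suv39h1 to Suv39h2, and from −1.57 to −1.29 for Cbx3 to Cbx5. The lowest and highest came without library A or B of 60–65 μm. Removing the letter means as a replicate block gives the same 0.98, −2.37, 1.54, 0.11 and −1.43 for the 5 ratios by construction. Each class holds 1 library of each letter, so these 5 of the 156 could not have moved and are no check. Leaving out a 40–45 or 50–55 μm library could not move the ratios either, since their change was taken from 10–30 to 60–65 μm. Median start methylation moved from 0.880% to 0.190% at 40–45 μm without library A and from 1.23% to 0.635% at 50–55 μm without library B, and leaving out 1 library gave 0.190 to 0.6003% at 40–45 μm, 0.635 to 1.26% at 50–55 μm and 0.247 to 1.04% at 60–65 μm (0.767% with both). In PBAT it was 4.35% with at least 1 read per position, 1.83% with at least 10 (over the 5 genes that kept a value), and 3.61% within 500 bp, against 3.29% over 8. Median body methylation was 53.1% with at least 1 read, 55.3% with at least 10 (over 4 genes) and 37.9% over the whole gene, start included, against 58.6% over 8. The GV ratio of Ehmt2 was 0.535 to 0.599 and that of Cbx3 0.744 to 0.926 against either 60–65 μm library alone, and that of Suv39h1 0.212 to 0.474. The fraction of the 10–30 μm level of Suv39h1 left at 60–65 μm was 0.130 to 0.291 leaving out 1 library. For the GV ratios and this fraction the limit was the SD between the 2 libraries of 60–65 μm. Omitting 1 of those 2 could not exceed it at these values, so such omissions are no check either. These alternatives were chosen after seeing the data. Suv39h1 was fitted only without the filter and rests on as few as 17 reads.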
